A study of Homo sapiens with 6 samples.

Results

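The genes described here are 10 components of bone morphogenetic protein (BMP) signalling, and they make up 10 of the 27434 gene rows of the deposited tables. They are the ligands BMP2 (Entrez gene 650), BMP4 (652) and BMP7 (655), the receptor BMPR1A (657), the target genes ID1 (3397), ID2 (3398) and ID3 (3399), and the inhibitors SMAD6 (4091), SMAD7 (4092) and BAMBI (25805). All 10 symbols matched a row by Entrez identifier, and no row was shared with another gene. RNA was sequenced from HT-29, an established human colorectal adenocarcinoma cell line, 48 h after transfection of small interfering RNA (siRNA) pools. The 3 groups of 2 libraries received a pool against HOXA-AS3 (siHOXA-AS3), a pool against HOXB-AS3 (siHOXB-AS3) or a non-targeting pool (siNT). Both targets are long noncoding RNAs transcribed antisense within the HOX clusters. The labels give 10 nM of siRNA for all groups, whereas the methods of the study state another concentration. One pool per target was used in 1 cell line, so an effect of the target and an off-target effect of its pool cannot be told apart. Nothing in the labels says that the libraries of a group came from separate cultures, so the p-values measure only the spread between these libraries.

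The set was chosen by a measured value, since the difference of BMP2 between siHOXB-AS3 and siNT libraries was known when the members were proposed. That contrast is therefore given as a description for all members: how many a fit called is stated beside the share of all genes called, and nothing is read from it. The same holds for the value of BMP2 between the knockdowns (KD), where the siHOXB-AS3 libraries are used again. The siNT libraries serve in both comparisons with a control, which are given side by side.

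BMP ligands are secreted dimers that bring together type I receptors such as BMPR1A and type II receptors. The receptors phosphorylate SMAD1, SMAD5 and SMAD9, which enter the nucleus with SMAD4 and activate target genes, among them the ID genes, which encode inhibitors of basic helix-loop-helix transcription factors. SMAD6, SMAD7 and the decoy receptor BAMBI are themselves induced by the pathway or by the related TGF-beta pathway and restrain it. In the colon, BMP signalling is stronger towards the top of the crypt, and secreted antagonists from the stroma limit it at the base. HT-29 cells are known to carry an inactivating SMAD4 mutation.

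The ID and inhibitory SMAD genes form pairs of paralogues whose levels are set side by side in each library, so the 250 bases before the annotated start of each are shown. They are RefSeq sequences on GRCh38.p14, which is not the build the study's processing notes name (hg19), and the table used held 8 of the 10 genes (BMP2 and BMP7 were not among them). Capitals mark matches, on either strand, to GGCGCC and GGAGCC, GC-rich elements known to bind BMP-activated SMAD proteins, and to CAGAC, the SMAD box. No match overlapped another.

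ID1, upstream of the start at chr20:31605039-31605288, plus strand, and ID2 at chr2:8681806-8682055, plus strand:
ID1: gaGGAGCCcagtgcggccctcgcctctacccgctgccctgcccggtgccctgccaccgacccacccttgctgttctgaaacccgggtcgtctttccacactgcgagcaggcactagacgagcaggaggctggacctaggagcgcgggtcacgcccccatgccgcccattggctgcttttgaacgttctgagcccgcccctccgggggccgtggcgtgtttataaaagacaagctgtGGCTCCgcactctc
ID2: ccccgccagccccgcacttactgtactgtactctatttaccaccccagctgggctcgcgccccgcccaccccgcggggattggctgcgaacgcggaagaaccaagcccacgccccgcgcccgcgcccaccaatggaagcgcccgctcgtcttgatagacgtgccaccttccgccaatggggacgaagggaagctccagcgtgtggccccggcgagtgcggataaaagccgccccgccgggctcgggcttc

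SMAD6 at chr15:66701986-66702235, plus strand, and SMAD7 at chr18:48950966-48951215, minus strand:
SMAD6: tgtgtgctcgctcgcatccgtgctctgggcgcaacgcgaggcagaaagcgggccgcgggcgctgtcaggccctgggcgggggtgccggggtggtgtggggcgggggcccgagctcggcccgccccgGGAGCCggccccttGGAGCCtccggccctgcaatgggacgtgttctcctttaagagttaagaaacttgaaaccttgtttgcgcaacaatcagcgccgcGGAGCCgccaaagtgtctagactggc
SMAD7: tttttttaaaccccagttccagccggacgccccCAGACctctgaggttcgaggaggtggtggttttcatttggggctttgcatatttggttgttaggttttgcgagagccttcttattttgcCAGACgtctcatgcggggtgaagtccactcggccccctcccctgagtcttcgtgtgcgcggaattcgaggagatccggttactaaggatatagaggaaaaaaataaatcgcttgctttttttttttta

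The ID1 window held 2 matches to GGAGCC, and the ID2 window held none of the 3 motifs. The SMAD6 window held 3 matches to GGAGCC, whereas the SMAD7 window held 2 matches to CAGAC. Among the 8 members with a sequence, GGCGCC was found in 2, GGAGCC in 4 and CAGAC in 4. Across 35114 promoters of the same length, GGCGCC was found in 16.4%, GGAGCC in 30.6% and CAGAC in 38%. These matches describe the letters of the windows and were not tested for binding.

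Total expected counts per library were between 15998518 and 26263938. The 2 siHOXA-AS3 libraries stood apart from each other more than those of the other groups. The SD of their log2 differences over genes was 0.726, against 0.425 for siNT and 0.371 for siHOXB-AS3, and these differences followed the GC content of the genes (Pearson's r = 0.743 across genes, which are not independent replicates). Values from siHOXA-AS3 are therefore given per library. HOXA-AS3 was counted 38 and 18 times in siNT and 12 and 12 times in siHOXA-AS3 libraries (log2 fold change -1.09, SE 0.403, edgeR adjusted p = 0.711). HOXB-AS3 was counted 303 and 213 times in siNT and 67 and 76 times in siHOXB-AS3 libraries (log2 fold change -1.96, SE 0.248, edgeR adjusted p = 0.0678). Of 10 colon epithelial markers, 9 reached 1 TPM (a level corrected for gene length and library size) in at least 1 library and CDX2 did not. Their summed level was 6699 to 6934 TPM in siNT, 5899 to 8162 in siHOXA-AS3 and 5875 to 5923 in siHOXB-AS3 libraries, where edgeR called 2 of them, CEACAM5 and CEACAM6, lower than in siNT. DESeq2 called 3, with EPCAM, and a fit of those groups alone 5. Of all genes, edgeR called 0.0614%, DESeq2 2.84% and the fit of those groups alone 23.3%. Of the 10 markers, 8 had a log2 fold change below 0 (median -0.47), beside 6602 of 13034 genes tested (median -0.01). None of 8 fibroblast and 5 endothelial markers reached 1 TPM. Of 7 immune markers, 3 did, namely LYZ, CD68 and CD14, with PTPRC, CD3E and ITGAM among those below 1 TPM. The list summed to 1209 to 1422 TPM in siNT, 1511 to 1779 in siHOXA-AS3 and 1021 to 1079 in siHOXB-AS3 libraries. LYZ made up most of this sum, at 1006.82 to 1761.33 TPM over all libraries. The part of these shifts in the results was not tested. In these bulk samples, fewer cells of a type and less RNA per cell cannot be told apart.

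In control cells the BMP genes covered a wide range of levels. By mean TPM in the siNT libraries the order was BMP4 (170.5), ID1 (134.2), ID2 (20.1), BMPR1A (13.5), SMAD6 (11.8), SMAD7 (6.89), BMP2 (2.43), BAMBI (1.21), ID3 (0.215) and BMP7 (0.075). For 8 of the 9 neighbouring pairs the ranges over the siNT libraries did not overlap, and only ID3 and BMP7 could not be ordered. BMP4 was thus the main ligand transcript of the 3 and ID1 the main ID transcript. BMP7 and ID3 had too few counts to be tested, leaving 8 of 10 members among the 13034 genes tested.

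**Figure D1:**
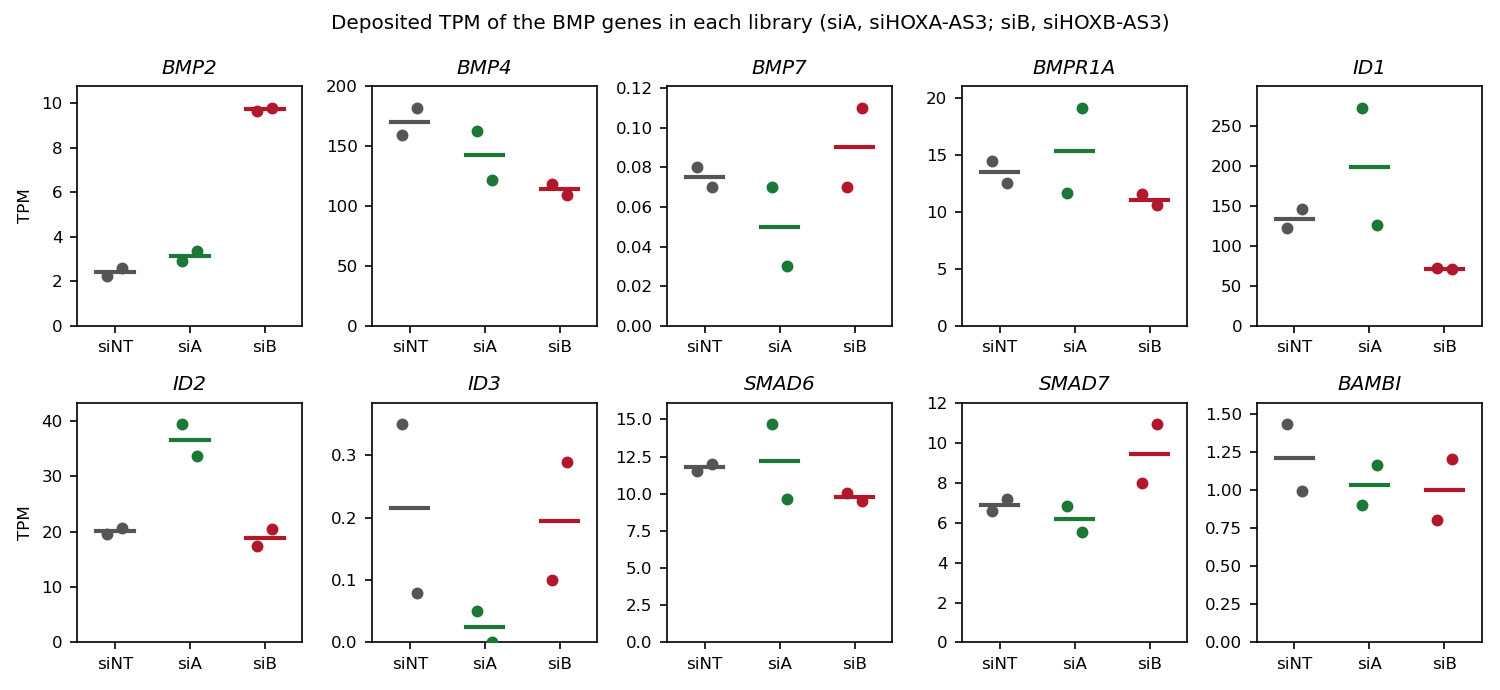
Deposited TPM of the 10 BMP genes in each library. Points are the 2 libraries of a group, lines are their means, and each vertical axis starts at 0. BMP2 lies at 9.66 and 9.79 TPM in the siHOXB-AS3 libraries and at or below 3.36 TPM in the others, and ID1 is spread from 125.54 to 272.56 TPM within siHOXA-AS3.

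BMP2 is the ligand whose difference chose the set. Its level was 2.25 and 2.60 TPM in siNT, 2.91 and 3.36 TPM in siHOXA-AS3 and 9.66 and 9.79 TPM in siHOXB-AS3 libraries. Both siHOXB-AS3 libraries lay far above the other 4, and both siHOXA-AS3 libraries lay slightly above siNT. Relative to siNT, BMP2 was 4.28-fold higher after HOXB-AS3 KD (log2 fold change 2.10, SE 0.223), the value on which the set was chosen. After HOXA-AS3 KD the log2 fold change was 0.36 (SE 0.223), which did not pass the test (edgeR adjusted p = 0.928). Between the KDs, BMP2 was higher in siHOXB-AS3 by 1.74 on the log2 scale (SE 0.219).

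BMP4, the ligand most abundant in these cells, measured 159.06 and 181.98 TPM in siNT, 162.72 and 121.93 TPM in siHOXA-AS3 and 118.81 and 108.90 TPM in siHOXB-AS3 libraries. The siHOXB-AS3 libraries were both below siNT, and one of the siHOXA-AS3 libraries lay within the siNT range. The log2 fold change from siNT was -0.50 (SE 0.215) in siHOXB-AS3, given as a description. In siHOXA-AS3 it was -0.26 (SE 0.215), which did not pass the test (edgeR adjusted p = 0.975). Leaving out siHOXA-AS3 replicate 1 gave -0.54, and leaving out replicate 2 gave -0.01, each from the 1 library left in that group. BMP7, a ligand best known from kidney and bone, was listed at 0.03 to 0.11 TPM, from 1.34 to 6.77 expected counts per library, and the groups overlapped.

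The level of BMP2 relative to BMP4 is likewise a description, since the difference in BMP2 that chose the set enters it. BMP2 made up 1.39% and 1.41% of the summed BMP2 and BMP4 level in siNT, 1.76% and 2.68% in siHOXA-AS3 and 7.52% and 8.25% in siHOXB-AS3 libraries. BMP4 nevertheless exceeded BMP2 in every library, by 70.7- and 70.0-fold in siNT, 55.9- and 36.3-fold in siHOXA-AS3 and 12.3- and 11.1-fold in siHOXB-AS3. The summed level of both ligands was 161.3 and 184.6 TPM in siNT, 165.6 and 125.3 TPM in siHOXA-AS3 and 128.5 and 118.7 TPM in siHOXB-AS3 libraries. The sum in siHOXB-AS3 was thus below that in siNT although BMP2 was higher.

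**Figure D2:**
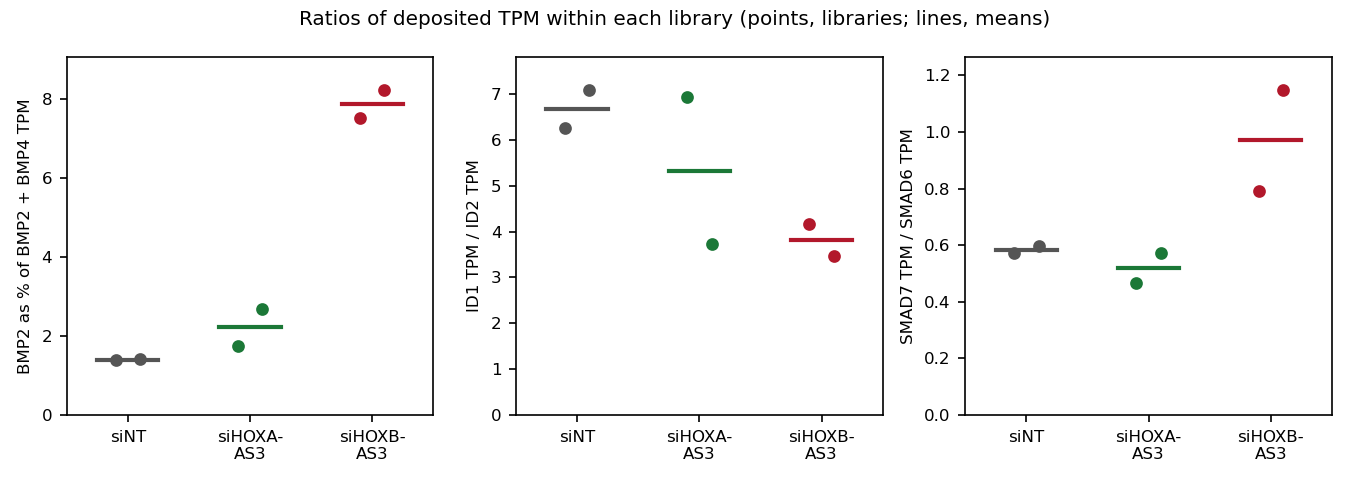
Ratios of deposited TPM within each library: BMP2 as a percentage of BMP2 plus BMP4, ID1 over ID2, and SMAD7 over SMAD6. Points are the 2 libraries of a group, lines are means, and the axes start at 0. BMP2 makes up 7.52% and 8.25% in siHOXB-AS3 and at most 2.68% in the other libraries.

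BMPR1A, a type I receptor for BMP2 and BMP4, was measured at 14.46 and 12.53 TPM in siNT, 11.65 and 19.15 TPM in siHOXA-AS3 and 11.56 and 10.62 TPM in siHOXB-AS3 libraries. The siHOXA-AS3 libraries lay on either side of siNT, and the siHOXB-AS3 libraries lay below it. Log2 fold changes from siNT were 0.17 (SE 0.245, edgeR adjusted p = 0.997) in siHOXA-AS3 and -0.19 (SE 0.246, a description) in siHOXB-AS3. In siHOXA-AS3, BMPR1A was at 0.45 when replicate 1 was left out and at -0.17 when replicate 2 was, each from the 1 library left. BAMBI, which resembles a type I receptor but lacks the kinase domain, was at 1.43 and 0.99 TPM in siNT, 0.90 and 1.16 TPM in siHOXA-AS3 and 0.80 and 1.20 TPM in siHOXB-AS3 libraries, and all groups overlapped.

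The ID genes, the targets most often used to read BMP activity, were ordered differently across the libraries. ID1 measured 122.30 and 146.16 TPM in siNT, 272.56 and 125.54 TPM in siHOXA-AS3 and 72.11 and 70.83 TPM in siHOXB-AS3 libraries. The siHOXB-AS3 libraries were the lowest and close to each other, whereas the siHOXA-AS3 libraries differed from each other by 1.22 in normalised log2 CPM (log2 of counts scaled to a common library size). From siNT, the log2 fold change was -0.83 (SE 0.374) in siHOXB-AS3, or 0.564 of the control level, given as a description. ID1 was therefore lower in the same libraries in which BMP2 was higher. In siHOXA-AS3 the log2 fold change was 0.56 (SE 0.371, edgeR adjusted p = 0.948). Leaving out siHOXA-AS3 replicate 1 gave -0.17, whereas leaving out replicate 2 gave 1.05, each from the 1 library left in that group. Between the KDs, each siHOXB-AS3 library had less ID1 than either siHOXA-AS3 library (log2 fold change -1.39, SE 0.378). This did not pass edgeR's test (adjusted p = 0.124) and passed with DESeq2 (adjusted p = 0.00126).

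ID2 was at 19.55 and 20.58 TPM in siNT, 39.35 and 33.67 TPM in siHOXA-AS3 and 17.35 and 20.41 TPM in siHOXB-AS3 libraries. Both siHOXA-AS3 libraries lay above the other 4, and siHOXB-AS3 overlapped siNT. After HOXA-AS3 KD the level was 1.81-fold that of siNT (log2 fold change 0.86, SE 0.211), with an unadjusted p of 0.00481 in the model fitted across all genes by edgeR and an adjusted p of 0.517. It thus failed the correction for 13034 genes, and DESeq2 gave an adjusted p of 0.135. With the GC trend removed from each library the adjusted p was 0.0463 by edgeR. Leaving out siHOXA-AS3 replicate 1 gave a log2 fold change of 0.688, and leaving out replicate 2 gave 1.015, each from the 1 library left in that group. In siHOXB-AS3 the log2 fold change from siNT was 0.00 (SE 0.211). Between the KDs it was -0.85 (SE 0.210), with an adjusted p of 0.102 by edgeR and 0.0251 by DESeq2. ID2 thus did not overlap siNT in the siHOXA-AS3 libraries, as for 28.6% of all genes. ID1 did not overlap siNT in the siHOXB-AS3 libraries (a description), as for 61.8% of all genes. The difference between these patterns was not tested.

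The ratio of ID1 to ID2 was 6.26 and 7.10 in siNT, 6.93 and 3.73 in siHOXA-AS3 and 4.16 and 3.47 in siHOXB-AS3 libraries. Both siHOXB-AS3 libraries lay below siNT in this ratio, and the siHOXA-AS3 libraries spanned both levels. ID3, which is induced by BMP in many cell types, was nearly absent, with 7 and 1 rounded counts in siNT, 1 and 0 in siHOXA-AS3 and 2 and 5 in siHOXB-AS3 libraries. A count of 0 in siHOXA-AS3 replicate 2 allows up to 3 counts, or 0.175 CPM (the count scaled to a common library size). A decrease or a small rise of ID3 was therefore not detectable at this depth.

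SMAD6, which acts chiefly on BMP type I receptors, was at 11.56 and 12.01 TPM in siNT, 14.67 and 9.67 TPM in siHOXA-AS3 and 10.06 and 9.53 TPM in siHOXB-AS3 libraries. The siHOXA-AS3 libraries lay on either side of siNT, and the siHOXB-AS3 libraries were slightly below it. The log2 fold changes from siNT were 0.05 (SE 0.260, edgeR adjusted p = 0.998) in siHOXA-AS3, a value whose sign depended on the library left out, and -0.17 (SE 0.260, a description) in siHOXB-AS3.

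SMAD7, which inhibits both BMP and TGF-beta receptors, was at 6.60 and 7.18 TPM in siNT, 6.85 and 5.54 TPM in siHOXA-AS3 and 7.98 and 10.95 TPM in siHOXB-AS3 libraries. Both siHOXB-AS3 libraries were above the other 4. From siNT, SMAD7 was 1.48-fold higher in siHOXB-AS3 (log2 fold change 0.56, SE 0.258), given as a description, and the log2 fold change in siHOXA-AS3 was -0.13 (SE 0.260, edgeR adjusted p = 0.997). Between the KDs it was 0.70 (SE 0.259, edgeR adjusted p = 0.219). The ratio of SMAD7 to SMAD6 was 0.571 and 0.598 in siNT, 0.467 and 0.573 in siHOXA-AS3 and 0.793 and 1.15 in siHOXB-AS3 libraries, so that SMAD7 exceeded SMAD6 in 1 library only.

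**Figure D3:**
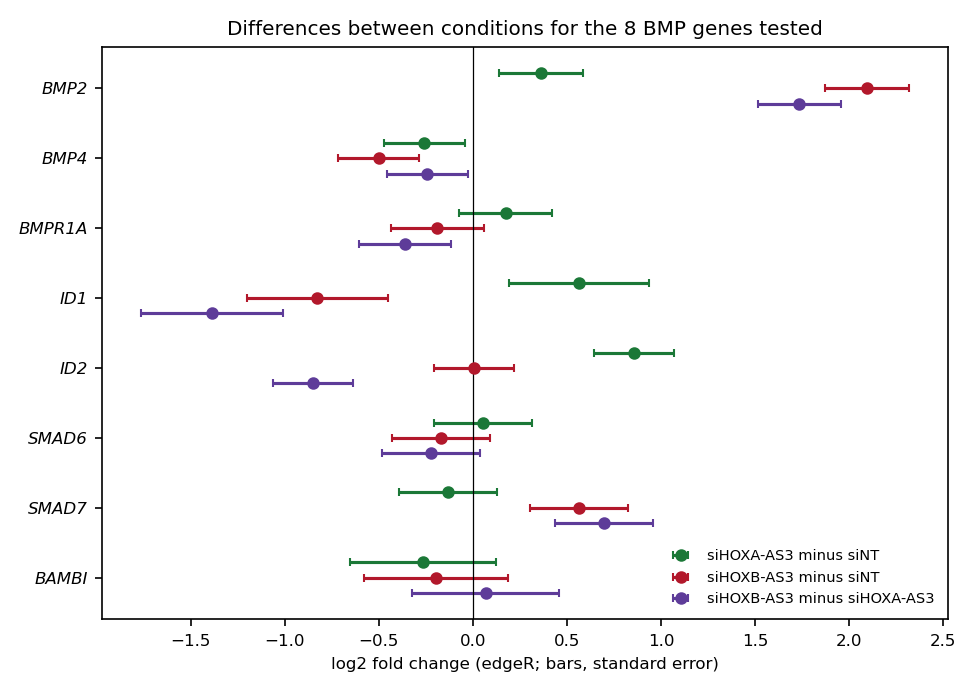
Log2 fold changes of the 8 BMP genes tested, from edgeR, with bars for the standard error. BMP2 lies at 2.10 for siHOXB-AS3 minus siNT, and ID2 at 0.86 for siHOXA-AS3 minus siNT and at 0.00 for siHOXB-AS3 minus siNT.

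After HOXA-AS3 KD, 0 of the 8 members tested passed edgeR at an adjusted p below 0.05, as for 0% of all genes, and 0 passed DESeq2 (0.397% of all genes). At an unadjusted p below 0.05 there was 1, ID2, against 6.16% of all genes. The libraries did not overlap for 2, BMP2 and ID2, both higher, against 28.6% of all genes. A fit of siHOXA-AS3 and siNT libraries alone called 0 members and 0% of all genes, and with the GC trend removed 1 member, ID2, passed, against 5.22%. The median log2 fold change was 0.11 over the members tested and 0.01 over all genes tested.

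After HOXB-AS3 KD the member called by edgeR and by DESeq2 was BMP2, which chose the set, against 0.0614% and 2.84% of all genes called. At an unadjusted p below 0.05 there was 1 as well, against 12.2%. The libraries did not overlap for 6 of the 8 members, higher for BMP2 and SMAD7 and lower for BMP4, BMPR1A, ID1 and SMAD6, against 61.8% of all genes. The fit of those groups alone called 4 members (BMP2, BMP4, ID1 and SMAD7), against 23.3%, and the fit with the GC trend removed called the same 4, against 16.4%. The median log2 fold change was -0.18 over the members and -0.01 over all genes. These counts come from the contrast that chose the set and are a description.

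Between the KDs, BMP2 is left out of the counts, since the siHOXB-AS3 libraries chose it. Of the other 7 members tested, 0 passed edgeR's test, against 1.57% of all genes, and 2 passed DESeq2's (ID1 and ID2), against 6.26%. At an unadjusted p below 0.05 by edgeR there were 3, SMAD7 higher and ID1 and ID2 lower in siHOXB-AS3, against 18.4%, and the same 3 did not overlap, against 45.3%. With the GC trend removed these 3 members passed, against 28.7%, and a fit of the KD libraries alone called 0 members, against 0.0156%. The median log2 fold change was -0.23 over the 8 members tested, BMP2 included, and -0.01 over all genes.

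The wider pathway was described with 102 other genes in 8 lists, of which 54 could be tested. None passed edgeR's test against siNT in either KD (0% and 0.0614% of all genes), and 1, TGFB2, passed between the KDs (1.57%). At an unadjusted p below 0.05 there were 6 after HOXA-AS3 KD (4 higher, 2 lower), 8 after HOXB-AS3 KD (4 higher, 4 lower) and 17 between the KDs (8 higher and 9 lower in siHOXB-AS3), beside 6.16%, 12.2% and 18.4% of all genes. DESeq2 called 2, 3 and 7, beside 0.397%, 2.84% and 6.26% of all genes. Their median log2 fold changes were 0.09, -0.05 and -0.18, beside 0.01, -0.01 and -0.01 over all genes. The shares of all genes given here also stand beside the counts of each list below.

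Among other ligands, only 3 of 17 could be tested and none passed by edgeR or DESeq2. GDF15, a distant stress-induced member of the family, was at 404.16 and 475.96 TPM in siNT, 587.91 and 370.20 in siHOXA-AS3 and 609.66 and 744.48 in siHOXB-AS3 libraries. GDF11 followed at 0.64 to 1.05 TPM. Beside the members, the ligands of the BMP family proper were therefore near or below 1 TPM.

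Of the other receptors and co-receptors, 7 of 11 were tested and none passed edgeR's test. ACVR1, a type I receptor, was at 25.81 and 23.82 TPM in siNT, 10.93 and 12.49 TPM in siHOXA-AS3 and 19.78 and 18.83 TPM in siHOXB-AS3 libraries, without overlap between any of the groups. Its log2 fold change after HOXA-AS3 KD was -1.09 (SE 0.177), with an adjusted p of 0.36 by edgeR and 0.00395 by DESeq2, and between the KDs it was 0.82, with an adjusted p of 0.0767 by edgeR and 0.0156 by DESeq2. BMPR2, the type II receptor, ranged from 9.73 to 16.35 TPM, and siHOXB-AS3 was the lowest group. Of the 3 receptor-activated and common SMAD genes tested out of 4, none passed by edgeR or DESeq2. SMAD5 ranged from 12.77 to 20.34 TPM and SMAD1 from 11.91 to 17.16 TPM.

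Most of the 15 listed secreted antagonists had too few counts to be tested. NOG, GREM1, FST, BMPER, CER1 and SOST were listed at 0 TPM in all 6 libraries, and 4 of the 15 antagonists were tested, of which none passed edgeR's test in any comparison and 1, TWSG1, passed DESeq2's between the KDs. NBL1, whose row joins it with other gene identifiers, was at 26.50 to 32.35 TPM. TWSG1, which binds BMPs together with chordin, was at 8.33 and 8.27 TPM in siNT, 7.55 and 15.69 TPM in siHOXA-AS3 and 3.63 and 3.81 TPM in siHOXB-AS3 libraries, so the siHOXB-AS3 libraries were the lowest (log2 fold change from siNT -1.07, SE 0.323, edgeR adjusted p = 0.252). Between the KDs its log2 fold change was -1.53 (SE 0.325), with an adjusted p of 0.0784 by edgeR and 0.000245 by DESeq2. Of the processing enzymes, 3 of 6 were tested and none passed by edgeR or DESeq2. FURIN, which cleaves BMP precursors, was at 14.40 to 35.22 TPM and PCSK6, a related convertase, at 11.52 to 16.54 TPM.

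All 15 intracellular regulators were tested and none passed by edgeR or DESeq2. FKBP1A, which binds type I receptors and whose row is joined, was at 611.27 to 800.21 TPM, and the phosphatase gene CTDSP2 at 64.97 to 100.13 TPM. SKI, a repressor of SMAD-driven transcription, was at 13.88 and 14.22 TPM in siNT, 10.62 and 11.26 TPM in siHOXA-AS3 and 8.08 and 8.29 TPM in siHOXB-AS3 libraries. The groups did not overlap, and the log2 fold change in siHOXB-AS3 was -0.69 (SE 0.171, edgeR adjusted p = 0.18).

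Of the other target genes, 8 of 16 were tested and none passed edgeR's test in any comparison. HES1, a Notch and BMP target, was at 44.39 and 38.13 TPM in siNT, 41.82 and 39.28 TPM in siHOXA-AS3 and 61.04 and 69.28 TPM in siHOXB-AS3 libraries (log2 fold change from siNT in siHOXB-AS3 0.75, SE 0.186, adjusted p = 0.176 by edgeR and 0.046 by DESeq2). GATA6, a transcription factor of the gut epithelium, was at 29.42 and 25.58 TPM in siNT, 21.81 and 26.92 TPM in siHOXA-AS3 and 41.00 and 45.53 TPM in siHOXB-AS3 libraries (0.75, SE 0.175, adjusted p = 0.158 by edgeR and 0.0393 by DESeq2). In both, the siHOXB-AS3 libraries were above the other 4, whereas for ID1 they were below them. RUNX2, an osteoblast factor, was at 2.49 and 2.77 TPM in siHOXB-AS3 against 4.79 and 4.87 TPM in siNT, with a log2 fold change of -0.80 (SE 0.200, edgeR adjusted p = 0.181).

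In the TGF-beta and activin arm, 11 of 18 genes were tested. TGFB2, whose row joins it with another gene, was at 1.90 and 1.60 TPM in siNT, 1.35 and 1.67 TPM in siHOXA-AS3 and 3.31 and 4.08 TPM in siHOXB-AS3 libraries. It was higher in siHOXB-AS3 than in siHOXA-AS3 by 1.39 on the log2 scale (SE 0.235, edgeR adjusted p = 0.0459), while against siNT the difference of 1.17 (SE 0.233) had an adjusted p of 0.114 by edgeR and 0.0107 by DESeq2. TGFB1 lay on the other side, with 19.63 and 20.75 TPM in siNT, 58.39 and 37.19 TPM in siHOXA-AS3 and 15.73 and 15.43 TPM in siHOXB-AS3 libraries, and its log2 fold change after HOXA-AS3 KD was 1.25 (SE 0.266, adjusted p = 0.484 by edgeR and 0.00383 by DESeq2). SMAD3, a receptor-activated SMAD of this arm, was at 60.53 to 76.53 TPM, and TGFBI, an extracellular matrix gene, at 34.79 to 62.96 TPM. SKI, RUNX2, TGFB1 and those points labelled in the plot of pathway genes that no rule below names were named after their values were seen.

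**Figure D4:**
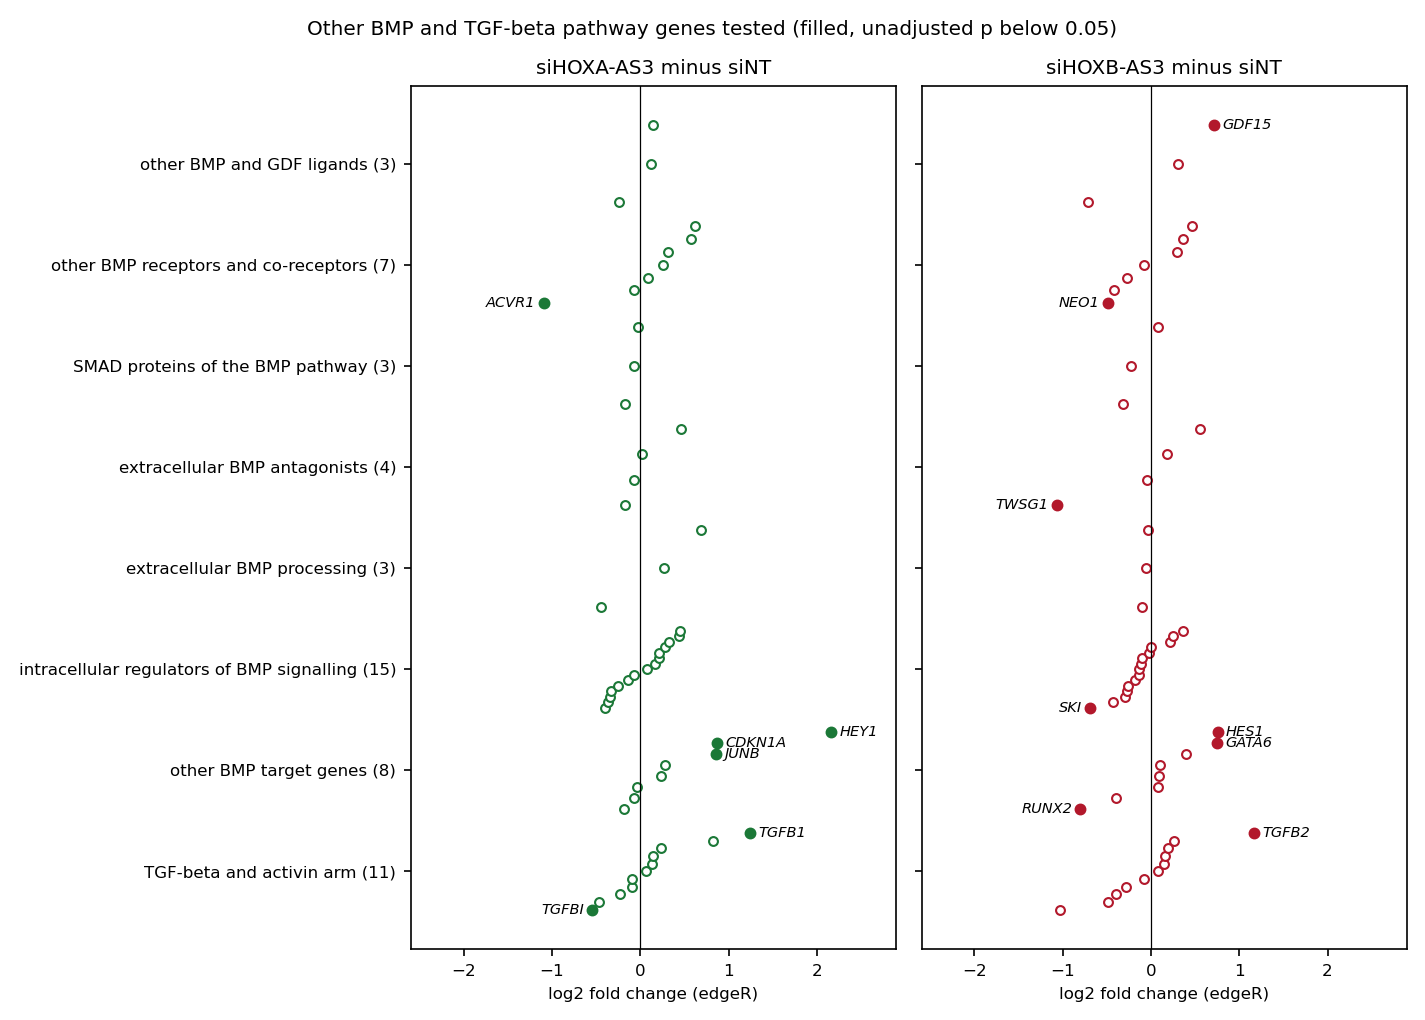
Log2 fold changes from edgeR of the 54 other pathway genes tested, by list, with the number tested in brackets, for siHOXA-AS3 minus siNT (left) and siHOXB-AS3 minus siNT (right). Filled and named points have an unadjusted p below 0.05 (6 and 8 genes), and none passed after adjustment over 13034 genes.

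Across the 6 libraries, among the genes whose log2 CPM values were most like those of BMP2 were PROSER2 (Pearson's r = 0.994), PRSS23 (0.992), PTPN14 (0.990) and PFKFB2 (0.989), out of 11419 genes with a mean of at least 1 TPM. As for BMP2, the siHOXB-AS3 libraries were the highest, as in PTPN14, a phosphatase, which was at 8.28 and 7.68 TPM in siNT, 9.47 and 10.39 TPM in siHOXA-AS3 and 16.95 and 17.62 TPM in siHOXB-AS3. Of the candidates, 103 reached an r of 0.95. Spearman's rho with BMP2 was 0.771 for PROSER2, 0.829 for PRSS23 and 0.943 for PTPN14 and PFKFB2. By that measure 20 candidates reached 1, so the ranking depended on the measure. The genes most like ID1 were PPDPF (0.999), PLEC (0.998), SMARCD1 (0.998), SLC67A1 (0.997) and PC (0.995), with 205 genes at 0.95 or above. They shared with ID1 the high value of siHOXA-AS3 replicate 1, as in PLEC, which encodes the cytoskeletal linker plectin, at 17.22 and 19.85 TPM in siNT, 30.90 and 17.75 TPM in siHOXA-AS3 and 10.74 and 11.28 TPM in siHOXB-AS3. These correlations describe 6 libraries that share depth and GC effects. The genes were picked for following BMP2 or ID1, so the patterns they share with them were fixed by that choice. For BMP2 this includes the siHOXB-AS3 difference that chose the set.

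Among the members themselves, over the same 6 libraries, BMP2 had an r of 0.797 with SMAD7, -0.718 with ID1 and -0.685 with BMP4. ID1 had an r of 0.818 with SMAD6, 0.721 with BMP4 and 0.738 with ID2, although Spearman's rho with ID2 was 0.371. SMAD6 and SMAD7 had an r of -0.01. ID1, SMAD6 and BMP4 had similar orders over the libraries (Spearman's rho 0.829 to 0.886 between them). Spearman's rho of BMP2 with SMAD7 was 0.6. The correlations of BMP2 are a description, since the difference that chose the set enters them.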

How the data were processed

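RNA-seq libraries of 3 siRNA groups in HT-29 cells were compared. The authors quantified reads with RSEM against RefSeq, and the processing notes name hg19. No aligner, RSEM version or strand setting is named (not given in the sources used here). The authors deposited, per gene and library, expected counts (reads estimated to come from a gene, not normalized), TPM values and FPKM values (both corrected for gene length and library size). Without the strand setting, it is not known whether reads of overlapping antisense genes were told apart. Reads of pseudogene copies, known for BMPR1A and ID2, may have been divided between rows.

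Here expected counts were rounded, genes were kept by filterByExpr (minimum count 10, 13034 genes), and TMM-normalised counts of all 6 libraries were tested with edgeR 4.0.16 (robust quasi-likelihood, R 4.3.3) with Benjamini-Hochberg adjustment over all genes tested and a threshold of 0.05. The SE is the absolute log2 fold change divided by the square root of F. The scripts were checked on simulated data. Alternatives were DESeq2 1.42.0, other scalings and filters, limma 3.58.1 on log2(FPKM + 0.1), a fit of the compared groups alone, a replicate block, removal of the GC trend of each library (GC known for 98.8% of genes tested) and leaving out each library. Up to 0.0473% of the counts of a library fell on rows with no symbol, which were kept in the totals. An exact permutation test of 2 against 2 libraries cannot give a two-sided p below 0.333, so none was used. Libraries of a group differed by more than counting noise.

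The members and lists were chosen with earlier results of these data known. The genes named were all members, pathway genes that passed in any comparison, the 2 of each pathway list with the highest mean TPM, the 5 most correlated with BMP2 and with ID1, the targets, and those said to be named after their values were seen. Some genes that this rule or the lists hold are not reported here. HES1 and GATA6 are among the highest of their list, as are ACVR1 and TWSG1 of theirs.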

Additional observations from a re-analysis of the deposited data

How the results depend on the processing

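With 2 libraries per group, calls depended on the processing more than fold changes did. The shares of all genes called by edgeR, by DESeq2, with the compared groups alone and with the GC trend removed follow. They were 0%, 0.397%, 0% and 5.22% after HOXA-AS3 KD, and 0.0614%, 2.84%, 23.3% and 16.4% after HOXB-AS3 KD. Between the KDs they were 1.57%, 6.26%, 0.0156% and 28.7%. For the other settings no such share was computed, so those counts are not read as results about the pathway. After HOXA-AS3 KD, 0 members were called, 1 with the GC trend removed and 0 to 3 with a library left out. Of the other pathway genes 0 were called, against 2 by DESeq2, 1 without the filter, 6 with the GC trend removed and 0 to 19 with a library left out. After HOXB-AS3 KD, 1 member was called, against 4 with the compared groups alone, 4 with the GC trend removed, 0 with the replicate block and 0 to 4 with a library left out. Other pathway genes numbered 0, against 3 by DESeq2, 1 without the filter, 14 with the compared groups alone, 10 with the GC trend removed and 0 to 14 with a library left out. Between the KDs, 1 member (BMP2, a description) was called, against 3 by DESeq2, 2 without the filter, 0 with the compared groups alone, 0 with the replicate block, 4 with the GC trend removed and 0 to 5 with a library left out. Other pathway genes numbered 1, against 7 by DESeq2, 2 with RLE size factors, 2 with library totals, 5 without the filter, 0 with the compared groups alone, 0 with the replicate block, 0 by limma on FPKM, 27 with the GC trend removed and 0 to 27 with a library left out. The higher counts with a library left out came without either siHOXA-AS3 library, where the 1 left is assumed to vary like the other groups. Between the KDs, including TGFB2, the count was 0 without either siNT or either siHOXB-AS3 library. The cause was not tested.

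The replicate numbers are shared between groups, but the labels do not say that they mark a batch, and correlations of the deviations of same-numbered libraries were -0.347, -0.139 and 0.15, so the pairing rests on a number only. With the replicate block the count of members called after HOXB-AS3 KD was 0.

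The log2 fold change of BMP2 in siHOXB-AS3 against siNT stayed between 1.96 and 2.24 with a library left out, although edgeR no longer called it without siNT replicate 1 or 2 or without siHOXB-AS3 replicate 1 or 2. For ID2 after HOXA-AS3 KD, and for ID1 and ID2 between the KDs, the adjusted p depended on the alternative but the sign did not change. Signs changed for some values, that of ID1 after HOXA-AS3 KD among them. After HOXA-AS3 KD, the ranges with a library left out were -0.17 to 0.45 for BMPR1A, -0.17 to 1.05 for ID1, -0.34 to 0.37 for SMAD6, -0.364 to 0.073 for SMAD7 and -0.462 to 0.0059 for BAMBI, and limma gave -0.00035 for SMAD6. In siHOXB-AS3 they were -0.11 to 0.12 for ID2 and -0.496 to 0.070 for BAMBI, and ID2 was at -0.042 with library totals, -0.015 with a mean FPKM of at least 1 and -0.047 by limma. Between the KDs they were -0.486 to 0.046 for BMP4, -0.53 to 0.17 for SMAD6 and -0.24 to 0.33 for BAMBI. Depth limits BMP7 and ID3, which had at most 7 rounded counts per library.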
